A study of Mus musculus with 8 samples.

Results

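The annexins measured in these cerebellar cultures were the members Anxa1 to Anxa9 and Anxa11, taken as all probe-sets that carry the symbol of 1 such gene and no other. Of the 10 genes, 9 had a probe-set of their own. The only probe-set of Anxa11 also carries the symbols of other genes and was not used. The 9 genes were read by 20 of the 45037 probe-sets on the array, and 13 of these passed a filter on low signals that kept 18015 probe-sets. The members were chosen because Anxa8 had stood out by its T3 and untreated values on these same arrays, so the values of Anxa8 are given as a description with no test, and the question was whether the other annexins shared its pattern. The cells were primary cultures from pooled cerebella of newborn wild-type mice (P4 to P7 in the sample labels, newborns of an earlier age in the methods), kept for 48 h in serum-free medium and then given 0.1 µM T3, the active thyroid hormone, for 6, 16, 24 or 48 h. Untreated cultures were harvested at the same times and had the same medium changes with no T3 added. T3 and untreated cultures of a time point came from the same cell batch, and each of the 8 conditions was hybridised to 1 array, so no condition has a replicate.

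Annexins are cytosolic proteins that bind acidic phospholipids when calcium rises, through a core of repeated domains that is alike in the whole family, and they differ mainly in their amino-terminal tails. They take part in membrane repair, exocytosis and endosome traffic, and several of them bind small S100 proteins. Anxa8 is found mostly in epithelia and has been linked to late endosomes. Thyroid hormone acts through nuclear receptors, and in the postnatal cerebellum it times the migration and differentiation of granule neurons.

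The bases before the transcription start are shown for Anxa8, whose T3 values led to the choice of the family, for Anxa2, whose 4 differences between T3 and untreated arrays were the nearest to those of Anxa8 among the annexins, and for Anxa1, whose signal had the steepest slope over the hours. They are RefSeq promoter sequences of mouse build GRCm38.p6, read 5′ to 3′ on the strand of the gene, with matches to 4 searched motifs in capitals.
Anxa8, chr14:34085729-34085978, plus strand: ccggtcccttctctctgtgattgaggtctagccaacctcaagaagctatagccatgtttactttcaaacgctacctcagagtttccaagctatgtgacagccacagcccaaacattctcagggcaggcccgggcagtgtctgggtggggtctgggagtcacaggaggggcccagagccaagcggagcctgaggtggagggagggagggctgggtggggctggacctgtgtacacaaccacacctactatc
Anxa2, chr9:69453433-69453682, plus strand: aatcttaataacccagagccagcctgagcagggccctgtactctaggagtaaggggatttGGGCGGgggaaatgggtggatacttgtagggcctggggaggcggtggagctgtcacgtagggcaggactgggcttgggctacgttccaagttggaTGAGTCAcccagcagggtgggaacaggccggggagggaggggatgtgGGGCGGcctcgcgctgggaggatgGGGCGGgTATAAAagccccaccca
Anxa1, chr19:20390672-20390921, minus strand: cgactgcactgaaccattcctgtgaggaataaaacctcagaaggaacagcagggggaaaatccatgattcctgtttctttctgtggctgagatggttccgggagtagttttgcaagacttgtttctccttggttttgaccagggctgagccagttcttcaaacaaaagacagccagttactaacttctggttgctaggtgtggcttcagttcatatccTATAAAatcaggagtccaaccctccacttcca
In the 250 bases before the start, 8 of the members had a promoter entry, in 11 windows. Anxa3 and Anxa6 are named only. The letters AGGTCA, the half-site bound by thyroid hormone receptors, were found on either strand in 0 of the 11 annexin windows, against 14.0% of 32851 windows of all genes. The AP-1 motif TGANTCA was found in 1 window, that of Anxa2, where it began 95 bases before the start (6.75% of all windows). TATAAA was found in 2 windows, 32 bases before the start in Anxa1 and 17 bases before it in Anxa2 (12.4% of all windows). The Sp1 motif GGGCGG was found in 4 windows of 3 genes (32.7% of all windows). The Anxa8 window held none of these letters. The study listed putative T3 response elements of Anxa8 farther upstream. Those it tested in a cerebellar cell line did not reach its limit for receptor binding. A match is a description of the sequence only, and the absence of a match says only that the letters are not in these windows.

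The deposited signals are linear intensities, with a median of 14.8 to 17.7 per array. The cultures held the markers of the labelled neurons and also those of other cells. Neurod1, a transcription factor of granule neurons, had signals of 422.7 to 2566.4 with T3 and 266.3 to 2671.7 in untreated cultures, while Col3a1, a collagen of meningeal fibroblasts, had 264.8 to 3705.5 with T3 and 486.2 to 3632.8 in untreated cultures. The 24 h pair stood apart from the other pairs. With T3 at 24 h the signal was beyond 2-fold higher for 661 kept probe-sets and beyond 2-fold lower for 930, against 78 to 150 higher and 55 to 62 lower at the other time points. Aqp4, the astrocyte water channel, had a signal of 45.8 with T3 at 24 h against 1053.9 in the untreated culture, and 16.8 to 76.8 on the other 6 arrays. The T3 effects, the counts over time and the likeness to Anxa8 are therefore also given without the 24 h pair. A lower signal from bulk cultures can mean fewer cells of a type or less RNA per cell, and the arrays cannot tell these apart.

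Anxa8 (probe-set 1417732_at) went both ways with T3. Its signals with T3 at 6, 16, 24 and 48 h were 63.0, 57.8, 90.0 and 38.2, against 61.6, 112.0, 55.4 and 90.4 in the untreated cultures. T3 cultures were thus level with the untreated ones at 6 h, lower at 16 and 48 h and higher at 24 h. The log2 differences, T3 minus untreated, were 0.03, -0.95, 0.70 and -1.24 (0.516-fold at 16 h, 1.62-fold at 24 h and 0.423-fold at 48 h). Their mean was -0.37, and the slope of the log2 signal per doubling of the hours was -0.02. Ordered by level, the 8 arrays ran from untreated 16 h over untreated 48 h, T3 24 h, T3 6 h, untreated 6 h, T3 16 h and untreated 24 h down to T3 48 h, and with 1 array for each condition no spread says which neighbours in this order differ. The study also measured Anxa8 by Q-RT-PCR, on these cultures and another set. There it was slightly higher with T3 at 16 h and lower at 24 h, opposite to the arrays, and 48 h was not given. The array pattern of Anxa8 was thus not reproduced by Q-RT-PCR at 16 and 24 h. The study also reports T3 regulation of Anxa8 in a serum-deprived cerebellar cell line that carried the receptor. In mice with a mutant receptor in GABAergic neurons it found less Anxa8 RNA at the earlier age measured, and no significant change at the later age. These other systems were not compared with the arrays here.

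The second Anxa8 probe-set, 1425789_s_at, whose probes can also bind transcripts of related genes, repeated the directions. It fell just under the filter, with a mean log2 signal of 4.91 against a minimum of 4.95, and is given by its signals alone. These were 31.2, 23.9, 40.3 and 23.1 with T3 at 6, 16, 24 and 48 h, against 28.3, 40.8, 21.7 and 38.1 in the untreated cultures. The log2 differences were 0.14, -0.77, 0.89 and -0.72. Since 1 set of 8 arrays gave both readings, they are not separate measurements of the cultures. Nearest above the filter among the annexins was the third Anxa7 probe-set, with a mean log2 signal of 5.03.

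**Figure D1:**
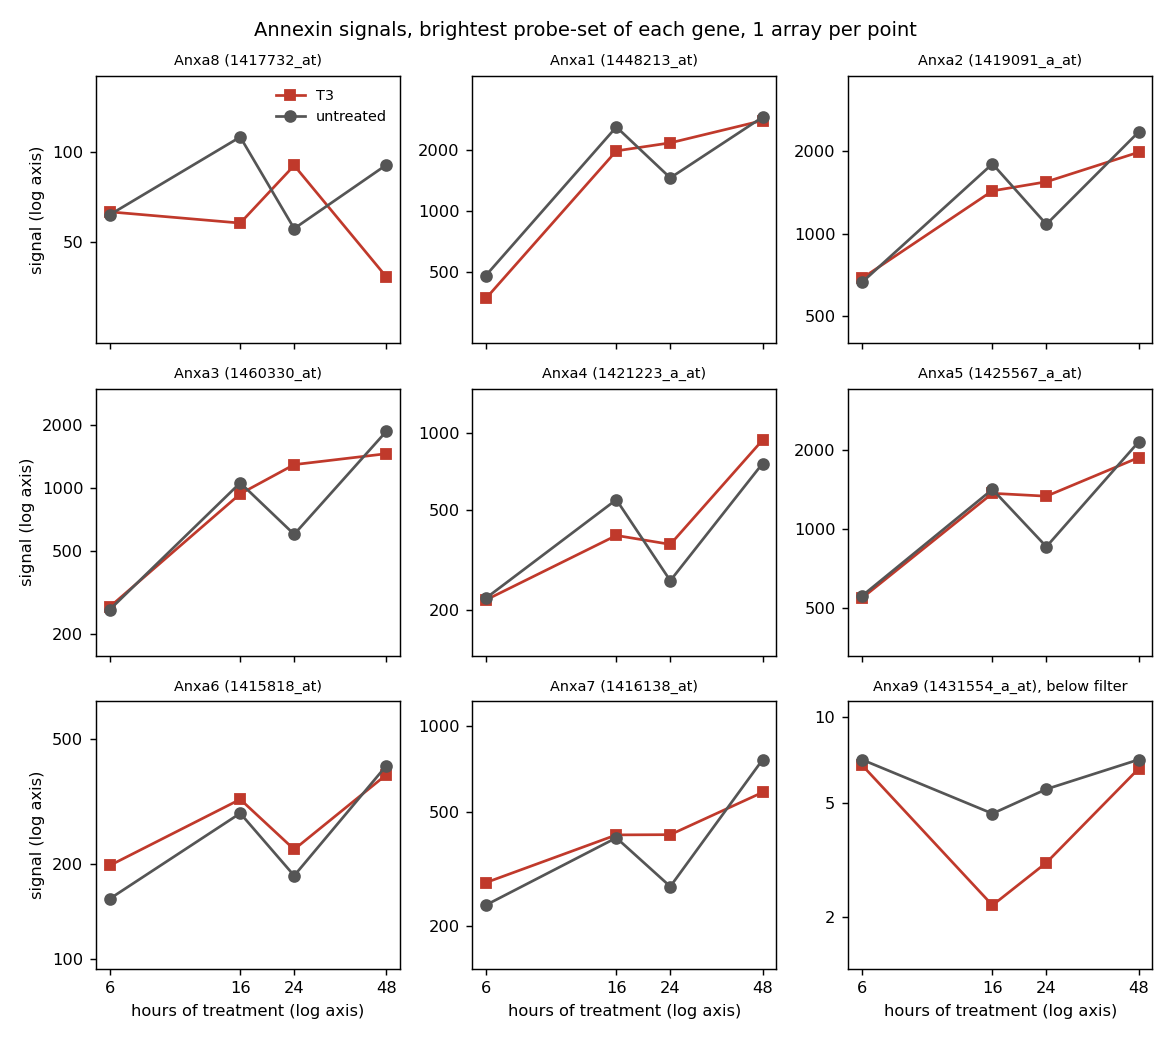
Signal of the brightest probe-set of each annexin gene (log axis) against hours of treatment (log axis), with T3 as squares and untreated as circles, 1 array per point and no error bars. The T3 line of Anxa8 lies under the untreated line at 16 and 48 h and above it at 24 h. The other 7 genes above the filter are higher at 48 h than at 6 h in both treatments, with a dip of the untreated line at 24 h. Anxa9 stays at signals of 2.2 to 7.1.

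Among the other annexins, 12 probe-sets of 7 genes were kept and tested. None passed the test for a T3 effect over the 4 pairs (limma with the time point as a block, Benjamini-Hochberg adjusted over all kept probe-sets), and 0 of the 18015 kept probe-sets passed, which is 0%. The lowest adjusted p of the 12 was 0.815. At an unadjusted p under 0.05 there were 2 of the 12, against 5.47% of all kept probe-sets. One was an Anxa2 probe-set, 1437692_x_at, with a mean log2 difference of 0.54 (SE 0.225), whose probes can bind other transcripts, and the other an Anxa6 probe-set, 1429246_a_at, with 0.38 (SE 0.152). Median centring of the arrays left 0 of the 12 at that unadjusted limit. A steady change of the T3 effect with the hours passed for 0 of the 12, as for 0 of all kept probe-sets (0%), and 1 of the 12 was under an unadjusted p of 0.05, against 1.72% of all.

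The brightest probe-set of each of the 7 genes was taken first. T3 signals were lower than untreated ones for 5 of 7 at 16 h, higher for 7 of 7 at 24 h and lower for 6 of 7 at 48 h. Among all kept probe-sets 50.1% were lower at 16 h, 54.3% higher at 24 h and 50.4% lower at 48 h. No difference here has a replicate. Anxa3 showed the widest gap of the 7. Its signals (1460330_at) were 270.3, 937.0, 1292.1 and 1456.6 with T3 at 6, 16, 24 and 48 h, against 262.2, 1057.6, 600.1 and 1864.5 in the untreated cultures. The log2 differences were 0.04, -0.17, 1.11 and -0.36, a 2.15-fold higher signal with T3 at 24 h. The mean difference was 0.15 (SE 0.221, adjusted p = 0.889 by limma), and without the 24 h pair it turned to -0.16 (adjusted p = 0.779).

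Anxa2, which forms a complex with S100a10 at the cell surface and binds tissue plasminogen activator there, had signals (1419091_a_at) of 687.3, 1429.4, 1542.2 and 1974.9 with T3, against 664.6, 1791.9, 1080.2 and 2339.3 in the untreated cultures at 6, 16, 24 and 48 h. The differences of 0.05, -0.33, 0.51 and -0.24 had the signs of Anxa8 at every time point, at smaller sizes from 16 h on. Their mean was 0.00 (-0.0021, SE 0.137), since higher and lower time points balanced. The dimmer probe-set 1437692_x_at went another way, with signals of 42.9, 60.6, 90.5 and 80.4 with T3 against 26.7, 65.8, 38.8 and 62.4 in the untreated cultures. Its differences were 0.68, -0.12, 1.22 and 0.37, so the Anxa2 probe-sets disagreed in direction at 48 h.

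Anxa1, which glucocorticoids induce and whose amino-terminal peptides bind formyl peptide receptors, had signals (1448213_at) of 371.4, 1989.7, 2180.0 and 2808.3 with T3, against 482.3, 2611.3, 1463.7 and 2919.1 in the untreated cultures. T3 cultures were lower at 6 and 16 h (differences of -0.38 and -0.39), higher at 24 h (0.57) and close to the untreated culture at 48 h (-0.06). Anxa5, which binds phosphatidylserine on dying cells and is used to stain them, had signals (1425567_a_at) of 545.1, 1371.2, 1337.0 and 1878.1 with T3, against 555.4, 1419.8, 856.9 and 2156.1 in the untreated cultures. Only its 24 h difference, 0.64, was larger than 0.20 in size. Anxa4, an annexin of epithelial cells, had signals (1421223_a_at) of 219.6, 395.2, 364.4 and 941.0 with T3, against 223.2, 547.3, 261.8 and 760.0 in the untreated cultures. In contrast to Anxa8, Anxa4 was higher with T3 at 48 h (0.31).

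Anxa6, whose annexin core is duplicated, was among the least like Anxa8. Its signals (1415818_at) were 198.5, 321.7, 223.2 and 385.1 with T3, against 155.7, 290.6, 184.3 and 411.4 in the untreated cultures. The T3 culture was higher at 6, 16 and 24 h, with differences of 0.35, 0.15 and 0.28, and the second probe-set (1429246_a_at) was higher at all 4 times, with 0.62, 0.49, 0.30 and 0.09. Anxa7, or synexin, an annexin of secretory cells that promotes membrane fusion, had signals (1416138_at) of 284.0, 416.4, 417.2 and 585.5 with T3, against 237.2, 406.8, 275.3 and 760.2 in the untreated cultures. At 24 h its probe-sets disagreed, with differences of 0.60, -0.15 (1416137_at) and 0.42 (1438764_at). Anxa9, an annexin that has lost calcium binding in its core, lay far under the filter, with signals of 2.2 to 6.8 with T3 and 4.6 to 7.1 in untreated cultures. Outside the listed members, Anxa10 also lay under it, with at most 19.2 with T3 and 49.1 in untreated cultures, as did Anxa13, with at most 5.5 and 4.4. The differences of Anxa10 (1449426_a_at) at 6, 16, 24 and 48 h were -1.10, -1.36, 0.71 and -1.35, at signals from 4.2. Those of Anxa13 were 0.38, -1.14, 2.46 and -0.87, at signals from 0.2. Differences of such dim signals were not tested. The other 5 probe-sets of listed members under the filter were dim second readings of Anxa1, Anxa2, Anxa4 and Anxa6, with signals of up to 50.5 with T3 and 41.4 in untreated cultures.

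Counted over the 12 probe-sets, 11 were higher with T3 at 24 h, against 54.3% of all kept probe-sets, and 8 were lower at 16 h (50.1% of all) and 7 lower at 48 h (50.4% of all). At 6 h, 8 were higher (50.9% of all). The median log2 differences at 6, 16, 24 and 48 h were 0.07, -0.13, 0.53 and -0.08 for these annexins, beside 0.01, 0.00, 0.05 and 0.00 for all kept probe-sets. Beyond 2-fold, T3 was higher at 24 h for Anxa3 and for the Anxa2 probe-set 1437692_x_at, which is 2 of 12 against 3.67% of all, and lower for 0 of 12, against 5.16% of all. At the other time points 0 of the 12 differed beyond 2-fold. Among all kept probe-sets the shares beyond 2-fold at 6 h were 0.527% higher and 0.328% lower. At 16 h these shares were 0.433% higher and 0.305% lower, while 48 h gave 0.833% higher and 0.344% lower. In size these 12 probe-sets were therefore smaller than Anxa8 at 48 h, where Anxa8 differed by -1.24 and the lowest of them, Anxa7 (1416138_at), by -0.38. This does not cover the dim probe-sets under the filter, where Anxa10 (1449426_a_at) differed by -1.35 at 48 h and an Anxa6 probe-set (1429247_at) by -1.14.

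**Figure D2:**
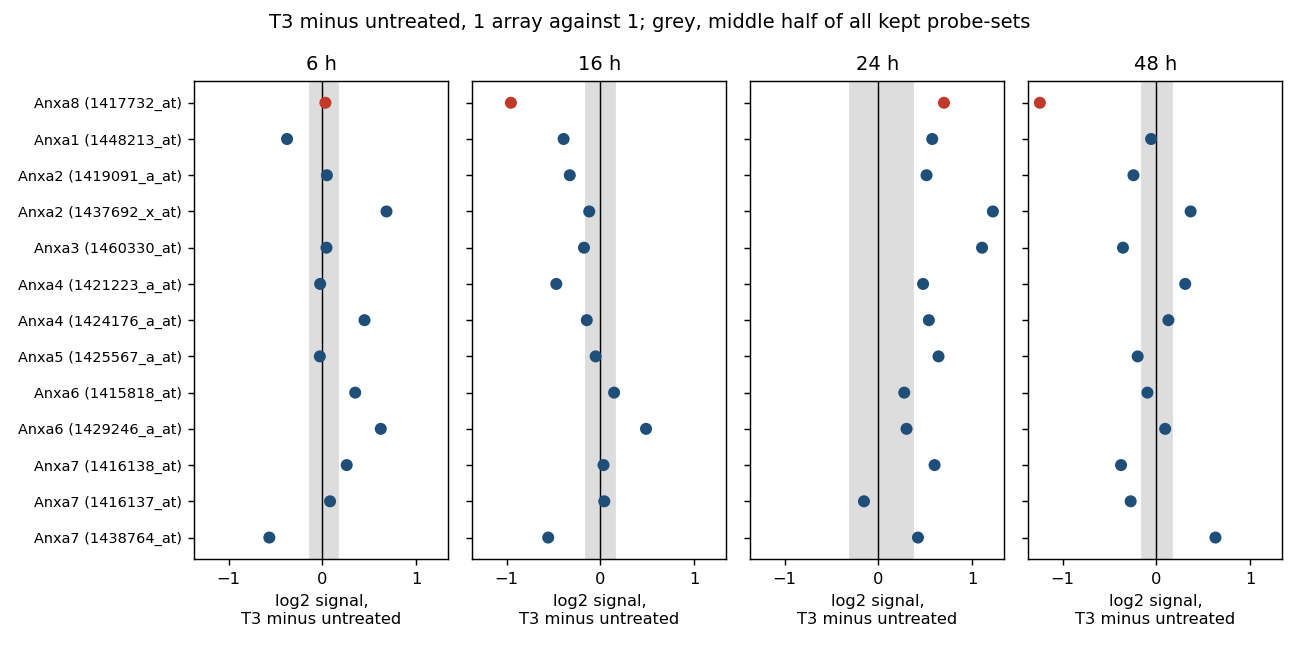
Log2 difference of T3 minus untreated (x axis) for each of the 13 kept annexin probe-sets at 6, 16, 24 and 48 h, 1 array against 1; Anxa8 in red, the others in blue, and the grey band spans the quartiles of all kept probe-sets. At 24 h 11 of the 12 other probe-sets lie right of 0, and at 16 and 48 h none of the 12 lies as far left as Anxa8.

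The full sign pattern of Anxa8, higher at 6 h, lower at 16 h, higher at 24 h and lower at 48 h, was shared by 2 of the 12, Anxa2 (1419091_a_at) and Anxa3, against 7.45% of the other kept probe-sets. The sign at 6 h rests on a difference of 0.03, and without it 4 of the 12 had the pattern, against 14.6% of all kept probe-sets. Without the 24 h pair, the signs at 6, 16 and 48 h were again shared by Anxa2 (1419091_a_at) and Anxa3 alone among the 12, against 12.7% of the other kept probe-sets. By the distance between the 4 differences, 1.90% of kept probe-sets lay nearer to Anxa8 than Anxa2 did (distance 1.19) and 2.83% nearer than Anxa3 did (1.25), while 79.1% lay nearer than the Anxa6 probe-set 1429246_a_at (2.09). Without the 24 h pair 4.94% lay nearer than Anxa2 and 4.96% nearer than Anxa3. Across the 8 arrays the log2 signals of the 12 probe-sets correlated with Anxa8 at Pearson r of -0.12 to 0.24, with a median of 0.10 beside 0.03 for all kept probe-sets. These correlations share the arrays and the cell batches and are descriptions. The median was 0.56 without the 48 h arrays and 0.03 without the 24 h arrays, over 6 arrays each.

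Over the hours the slopes of the other annexins were positive, while that of Anxa8 was near 0. With all 8 arrays taken as independent, 7 of the 12 probe-sets passed as rising (limma, with treatment as covariate and hours on a log2 scale, adjusted over all kept probe-sets), against 10.6% of all, and 0 passed as falling, against 8.56% of all. The rising probe-sets were those of Anxa1, Anxa2, Anxa3, Anxa4 and Anxa5 and a pair of Anxa7 probe-sets. All 12 slopes were positive, with a median log2 change of 0.41 per doubling of the hours, beside -0.03 for all kept probe-sets. The arrays of a time point deviated together, with an estimated correlation of 0.569. When time point was a random block, 0 of the 12 passed, against 1.75% of all kept probe-sets that passed as rising, and their adjusted p values began at 0.0518. With 1 mean per time point 0 of the 12 and 0% of all passed.

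Anxa1 had the steepest slope, 0.89 (SE 0.167, adjusted p = 0.0151 by limma, 0.0518 with the random block). Anxa3 followed with 0.85 (SE 0.137, adjusted p = 0.0119, 0.0610 with the random block). The slopes were 0.58 for Anxa5 (SE 0.106, adjusted p = 0.0145 by limma), 0.57 for Anxa4 (1421223_a_at, SE 0.142, adjusted p = 0.0314) and 0.52 for Anxa2 (1419091_a_at, SE 0.0979, adjusted p = 0.0153). The Anxa7 slopes were 0.41 (1416138_at, adjusted p = 0.0336 by limma) and 0.39 (1416137_at, adjusted p = 0.0191). The Anxa6 slopes of 0.33 and 0.41 did not pass, with adjusted p = 0.0720 and 0.127 by limma. Leaving out the 6 h arrays or the 48 h arrays left 0 of the 12 calls, as it left 0 of all 18015 kept probe-sets. Leaving out the 24 h arrays gave 11 of 12 as rising, against 19.4% of all. The methods do not say whether different time points shared a cell batch, so hours of culture and preparation of the cells cannot be told apart.

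**Figure D3:**
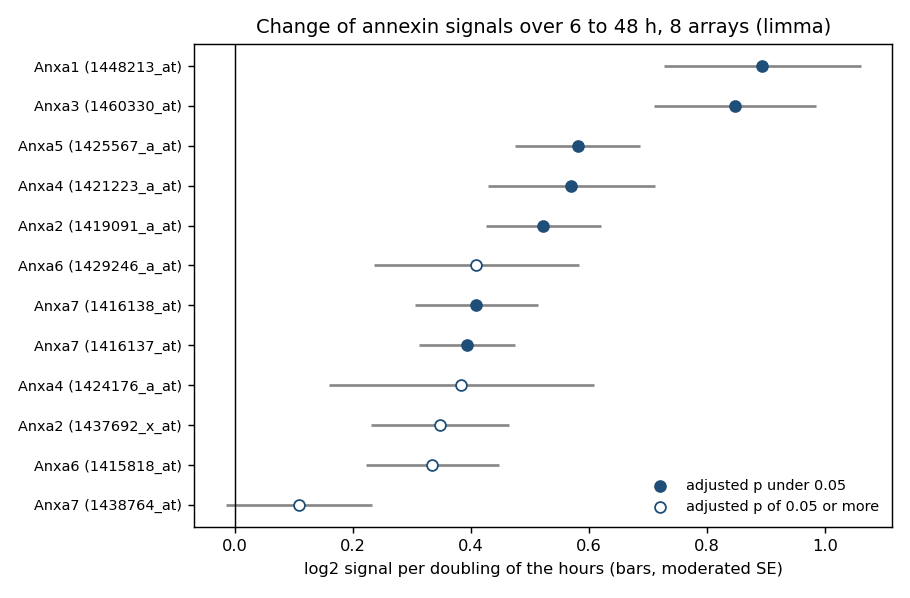
Slope of the log2 signal per doubling of the hours (x axis) for the 12 annexin probe-sets other than Anxa8, fitted with limma over 8 arrays, with the moderated SE as bars; filled points had an adjusted p under 0.05. All 12 slopes lie right of 0, between 0.11 for Anxa7 (1438764_at) and 0.89 for Anxa1, and 7 are filled.

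The untreated 24 h culture stood below its neighbours in time. On that array 11 of the 12 probe-sets were lower than on the untreated 16 h array, against 54.2% of all kept probe-sets, while on the T3 24 h array 6 were lower than on the T3 16 h array, against 52.7% of all. Anxa3, for example, had 1292.1 with T3 at 24 h and 937.0 with T3 at 16 h, whereas the untreated cultures had 600.1 at 24 h and 1057.6 at 16 h. The higher T3 signals at 24 h thus stood beside low signals on the untreated array. Without the 24 h pair the mean T3 differences also became negative for Anxa4 (1421223_a_at, -0.06), Anxa5 (-0.09) and Anxa7 (1416138_at, -0.03), and none of the 12 passed.

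Markers of meningeal fibroblasts and mural cells had sums that resembled those of the annexins from 16 h on. The summed signal of the annexins other than Anxa8 was 2583.0, 6862.8, 7359.2 and 10036.1 with T3 at 6, 16, 24 and 48 h, against 2587.7, 8129.9, 4727.9 and 11217.7 in the untreated cultures. The 8 genes of the fibroblast and mural list (collagens, Dcn, Lum, Pdgfrb, Acta2 and Igf2) summed to 1782.4, 8969.0, 10267.3 and 15009.5 with T3, against 2273.7, 10409.2, 7039.5 and 15989.2 in the untreated cultures. The ratio of the T3 sum to the untreated sum at 6, 16, 24 and 48 h was 0.998, 0.844, 1.56 and 0.895 for the annexins and 0.784, 0.862, 1.46 and 0.939 for this list. At 6 h they differed, with median log2 differences of 0.04 for the annexins and -0.44 for the list, and at 48 h the medians were -0.20 and 0.01. Col3a1, Col1a2, Dcn and Igf2 make up most of the sum of this list. All 8 markers of the list were measured above the filter, and none was at 0. As rising with time 8 of 8 passed, against 10.6% of all kept probe-sets. With the random block 5 of these 8 markers passed, against 1.75% of all. Their part in the annexin values was not tested.

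Other markers moved differently. The astrocyte and Bergmann glia list summed to 4600.4 with T3 at 24 h against 8622.1 in the untreated culture, a ratio of 0.534, and its ratios at the other times were 0.941 to 0.971. Gja1 and Fabp7 make up most of this sum, and the median log2 difference of the list at 24 h was -2.15, with -4.52 for Aqp4. Of the 6 kept genes of this list 1, Gja1 (1437992_x_at), was higher with T3 at 24 h, by 0.14. Gja1 also passed as rising with independent arrays (slope 0.48, adjusted p = 0.0274 by limma), but not with the random block (adjusted p = 0.0658). The granule cell lineage list summed to 9196.9, 4780.9, 6650.3 and 2844.2 with T3, against 9446.7, 4293.9, 9160.1 and 2166.0 in the untreated cultures, and 5 of its 7 genes passed as falling with time, against 8.56% of all. None of the 7 passed with the random block, where the lowest adjusted p was 0.0973 by limma. Endothelial markers, at 215.5 to 613.9 with T3 and 215.3 to 604.2 in untreated cultures, had a ratio of 1.00 at 24 h. Microglial markers, at 593.4 to 2617.1 with T3 and 419.3 to 2643.1 in untreated cultures, had a ratio of 1.42 at 24 h and 0.990 at 48 h, which rested on Cd68, a lysosomal protein. Without Cd68 the microglial ratios were 0.834 at 24 h and 1.32 at 48 h. Choroid plexus markers had ratios of 1.04 to 1.11, with most of the sum from the transthyretin gene Ttr, and without Ttr the ratios at 6, 16, 24 and 48 h were 1.25, 1.34, 1.04 and 1.27. Kcnj13, a potassium channel of this epithelium, was higher with T3 at every time point, by log2 differences of 1.01, 0.95, 2.23 and 1.21. Its T3 effect did not pass (adjusted p = 0.779 by limma). Of the 6 kept choroid plexus genes, 4 were higher with T3 at 6 h and 5 at 24 h, while 2 were lower at 16 h and 2 at 48 h. Otx2 of this list differed by -0.85 at 24 h. The oligodendrocyte lineage had ratios of 0.373 at 24 h and 0.959 to 1.19 at the other times. Red blood cell genes were near background, with sums of 2.9 to 6.6. Whether any of these cell types bears on the annexin signals was not tested.

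**Figure D4:**
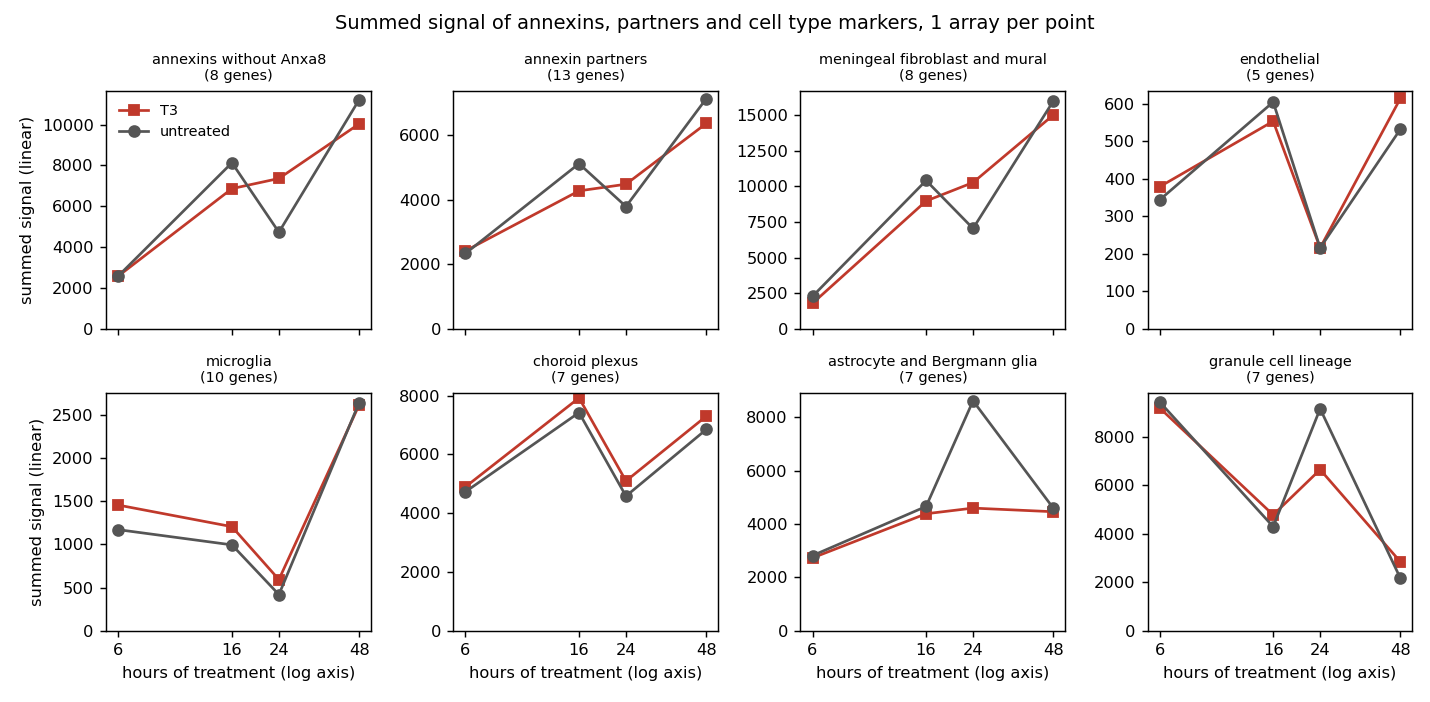
Summed linear signal (y axis, from 0) of the brightest probe-set of each gene in 8 gene lists against hours of treatment (log axis), T3 as squares and untreated as circles, 1 array per point. The annexins without Anxa8 and the fibroblast and mural markers both are higher at 48 h than at 6 h and both have a higher T3 than untreated sum at 24 h (7359.2 against 4727.9 and 10267.3 against 7039.5), whereas the astrocyte and granule cell sums are lower with T3 there.

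Genes of proteins that work with annexins also rose over the hours in the fit with independent arrays. Of 15 listed partners 13 had a probe-set and 9 were kept, and 7 of the 9 passed as rising and 0 as falling, against the same 10.6% and 8.56% of all kept probe-sets. With the random block 3 of the 9 passed, against 1.75% of all: Ahnak, a giant scaffold protein bound by the Anxa2 complex (slope 0.71, adjusted p = 0.0480 by limma), Plat, tissue plasminogen activator (slope 0.70, adjusted p = 0.0428), and the integrin Itgb5 (slope 0.93, adjusted p = 0.0474). None of the 9 passed for T3. The signs of Anxa8 were shared by 5 of the 9, against 7.45% of all, and without the 24 h pair by 5 of 9, against 12.7% of all.

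S100a10, the S100 partner of Anxa2, came nearer to Anxa8 than any annexin. Its signals (1456642_x_at) were 239.2, 377.3, 682.7 and 538.1 with T3, against 221.5, 638.6, 486.9 and 744.1 in the untreated cultures. The differences were 0.11, -0.76, 0.49 and -0.47, and 0.139% of kept probe-sets lay nearer to Anxa8 (0.377% without the 24 h pair). A second S100a10 probe-set (1416762_at) had 0.52, -0.59, 0.56 and -0.55. S100a6, or calcyclin, a partner of Anxa11 and other annexins, had 0.00, -0.53, 0.83 and -0.21, and Myof, a ferlin of membrane repair, had 0.03, -0.41, 0.56 and -0.57. None of these differences has a replicate, and the mean T3 effect of S100a10 was -0.16 (SE 0.199, adjusted p = 0.872 by limma).

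Vnn1 and Tgm2 were genes that the study had followed beside Anxa8 for their T3 values on these arrays, so their values are descriptions. Vnn1, a pantetheinase, had signals (1418486_at) of 69.9, 284.4, 417.9 and 280.9 with T3, against 75.6, 483.3, 311.9 and 438.6 in the untreated cultures, with differences of -0.11, -0.77, 0.42 and -0.64. A second Vnn1 probe-set (1447845_s_at) had differences of 0.28, -1.11, 0.64 and -0.69, with the signs of Anxa8 at all 4 times. Tgm2, a transglutaminase that crosslinks proteins, had differences (1433428_x_at) of -0.59, -0.68, 0.71 and -0.28. The brightest probe-sets of both were lower with T3 at 16 and 48 h and higher at 24 h, as Anxa8 was, and at 6 h the Vnn1 probe-sets disagreed. A dim Tgm2 probe-set under the filter (1426004_a_at) had 0.09 at 16 h, and the array value that the study lists for Tgm2 at 16 h was also not lower. By Q-RT-PCR in the study, Tgm2 was slightly higher at 16 h and lower at 24 h, opposite to the differences above. Vnn1 was slightly lower at 16 h there, with no value at 24 h. For both, 48 h was not given.

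By the 4 differences, the 5 genes outside the lists nearest to Anxa8 were Hspa1b (distance 0.440), Hspa1a (0.499), Mt1 (0.632), Fbxo36 (0.683) and Plscr3 (0.690). Hspa1b and Hspa1a encode inducible heat shock chaperones, Mt1 a metallothionein, Fbxo36 an F-box protein and Plscr3 a phospholipid scramblase of mitochondria. Hspa1b had signals of 469.1, 718.3, 672.5 and 1082.1 with T3, against 540.4, 1131.9, 402.6 and 2201.9 in the untreated cultures. Mt1 had 1286.1, 2263.0, 2246.4 and 1615.5 with T3, against 1169.3, 3596.8, 1549.6 and 2649.6 in the untreated cultures. As with Anxa8, the T3 signal of both was lower at 16 and 48 h and higher at 24 h. The highest correlations with Anxa8 over the 8 arrays were those of Rexo4 (0.93), Rpl41 (0.91), Tpt1 (0.91), Cox6a1 (0.90) and Rps4x (0.89), but the signals of these genes hardly moved, such as 3078.1 to 3299.1 with T3 and 3177.2 to 3349.3 in untreated cultures for Rpl41, a ribosomal protein. These genes were selected from 18014 probe-sets for their likeness to Anxa8.

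**Figure D5:**
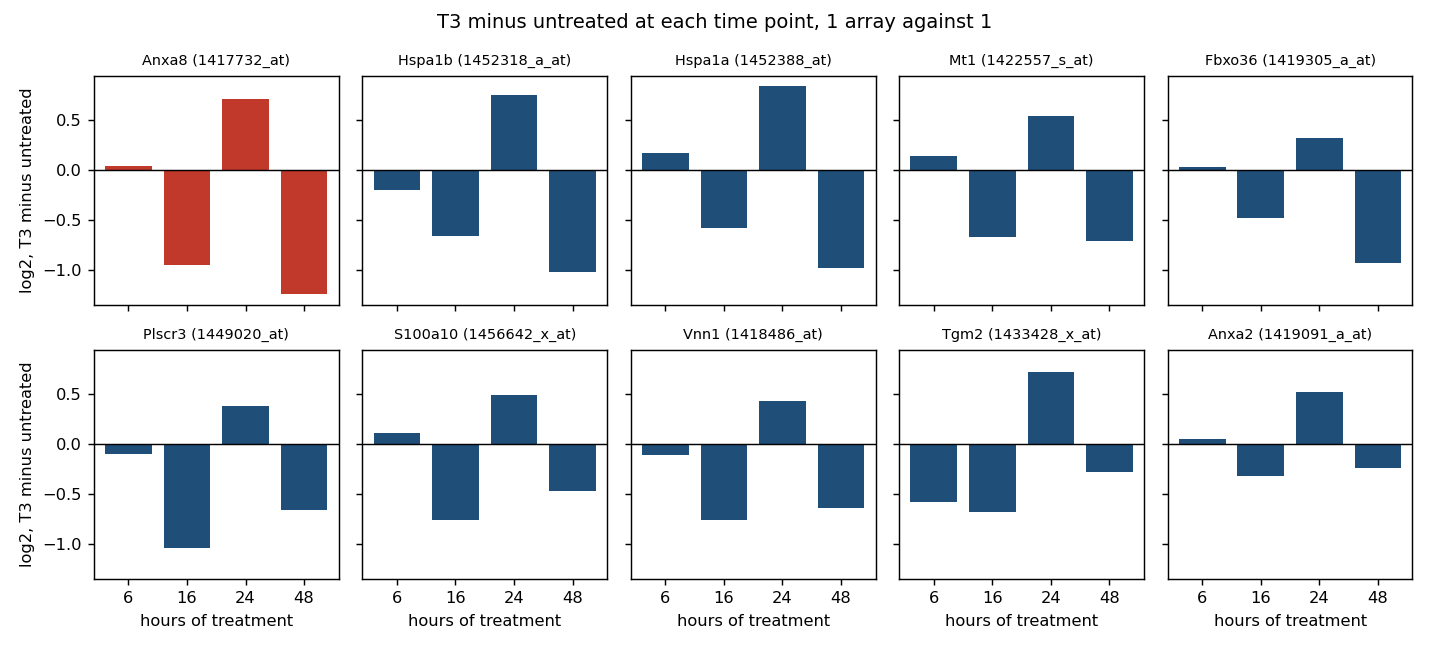
Log2 difference of T3 minus untreated (y axis) at 6, 16, 24 and 48 h for Anxa8 (red), the 5 genes outside the lists nearest to it, and S100a10, Vnn1, Tgm2 and Anxa2, 1 array against 1 with no error. All are lower with T3 at 16 and 48 h and higher at 24 h, and at 48 h Anxa2 differs by -0.24 where Anxa8 differs by -1.24.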

How the data were processed

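RNA of 8 cerebellar cultures was hybridised to whole-genome mouse Affymetrix arrays, 1 array for each treatment and time point. The table deposited by the authors gives each probe-set 1 intensity per array on a linear scale. GCOS and MAS5 are named in the submitters' processing notes, with no version. The trimmed mean (without the outer 2% at each end) was 99.0 to 99.9 on every array. The table has 45101 probe-sets, of which 64 controls were left out, and of the others 34945 carry 1 gene symbol, 932 several and 9160 none. Columns left unused: 0. The number of arrays limits the precision.

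A floor of 1 was put under the signals before the log2 was taken, and probe-sets were kept when the mean log2 signal over 8 arrays reached the 60th percentile (log2 of 4.95, signal of 31.0). Tests ran in R 4.3.3 with limma 3.58.1 (variance trend, moderated SE, Benjamini-Hochberg adjustment over all kept probe-sets, threshold 0.05). The T3 effect had the time point as a block (4 pairs, pairing by cell batch as the methods state). For the change with time the covariates were treatment and log2 hours, and its alternatives took the time point as a random block or as 1 mean. A changing T3 effect was fitted on the 4 paired differences. The fits were tested on simulated data in which all arrays were independent. That test does not cover arrays of a time point that deviate together, as they did here. No condition had a replicate, so p values measure only the spread between these arrays.

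Named were all probe-sets of the listed annexins, of Anxa10 and Anxa13, of fixed lists of partners and cell type markers, of Tgm2 and Vnn1, and the 5 genes with the highest correlation and the 5 with the smallest distance to Anxa8. A gene is represented by its brightest probe-set. The members and lists were chosen with earlier results of these data known. Motifs were searched and figures drawn with Python 3.11.15, matplotlib 3.10.9, numpy 2.4.6 and pandas 2.3.3. Alternatives were quantile normalization, median centring, a threshold of 1.5-fold, 32 added to every signal, a stricter filter (75th percentile) or none, dropping the variance trend or the block, linear hours, the untreated arrays alone, a gene's other probe-sets, and each time point left out in turn. Sign pattern, distances and list calls without the 24 h pair, and marker sums without Cd68 or Ttr, were added after seeing the data.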

Additional observations from a re-analysis of the deposited data

How the results depend on the processing

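The count of 0 annexin probe-sets passing for T3 was the same under every alternative run, and so was that for a T3 effect changing with time. The count of 7 rising probe-sets became 3 with hours in place of their log2 (7.34% of all kept probe-sets changed either way, against 19.2% with log2 hours). It became 0 when time point was a random block (2.18% of all), and 0 with 1 mean per time point and with the untreated arrays alone (4 arrays), where 0% of all passed. Leaving out the arrays of each time point in turn gave 0 to 11 (0 without 6 h or 48 h, with 0% of all; 6 without 16 h, with 16.5%; 11 without 24 h, with 43.2%). The sign pattern of Anxa8 was shared by 4 of 12 with median centring, against 13.6% of all, and by 2 of 12 without the 24 h pair, a setting chosen after seeing the data. Median centring shifted the median difference of all kept probe-sets to -0.08 at 6 h and -0.15 at 48 h. The 2 probe-sets beyond 2-fold at 24 h became 1 with 32 added to every signal. With no filter, which brought in 6 dim probe-sets, 2, 1, 4 and 1 lay beyond 2-fold at 6, 16, 24 and 48 h. One of the dim probe-sets, Anxa2 1437691_at, had signals of only 0.9 to 3.9. At 1.5-fold 2 lay beyond it at 6 h, 4 at 24 h and 1 at 48 h. The share of all probe-sets was not counted with 32 added, with no filter or at 1.5-fold, so these counts do not set annexins apart from other genes. The median correlation with Anxa8 ranged from 0.00 (-0.0045, without 6 h) to 0.56 (0.563, without 48 h).

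Mean T3 differences that passed in no setting changed sign. For Anxa2 (1419091_a_at) it was 0.02 (0.0153) with quantile normalization, and with time points left out -0.17 to 0.11. The ranges were -0.275 to 0.0473 for Anxa1, -0.16 to 0.33 for Anxa3, -0.0617 to 0.25 for Anxa4 (1421223_a_at), -0.0921 to 0.19 for Anxa5 and -0.0278 to 0.30 for Anxa7 (1416138_at). The slope of the Anxa4 probe-set 1424176_a_at ranged from -0.0397 to 0.535, and that of the Anxa7 probe-set 1438764_at was -0.11 with the untreated arrays alone. The cause was not tested. Signals near the filter limit the dim probe-sets, among them both of Anxa8.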
